A study of Mus musculus with 6 samples.

Results

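Tenascins and their matricellular relatives were followed in RNA-seq of mouse kidney cortex. The group holds 9 genes of the 24421 in the deposited count table: the tenascins Tnn, Tnc, Tnr and Tnxb, the osteopontin gene Spp1, the thrombospondins Thbs1 and Thbs2, Sparc and Postn. They were taken by gene symbol. The set was selected on measured values: Tnn had the largest I-PpoI against WT fold change of all genes called. The I-PpoI against WT values given here therefore describe the set and are no test of it.

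The I-PpoI group held 3 libraries from the cortex of mice with the endonuclease I-PpoI in proximal tubular epithelial cells, titled PT-I_Ppo-1, and the WT group held 3 libraries from the cortex of Wild-Type mice. I-PpoI is a homing endonuclease that leaves double-strand breaks in DNA, so the comparison asks what cortex with such cells expresses. The promoter or Cre that drives it, any allele or agent that both groups share, and age, sex and time are not given in the sources used here, and the I-PpoI transcript was not analysed here. The labels number the libraries without tying each to a separate mouse, so errors and p-values measure the spread between libraries, which may be technical.

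Matricellular proteins are secreted into the extracellular matrix, where they tune how cells attach, migrate and receive growth factors more than they bear load. Most are plentiful in development, sparse in resting adult tissue and made again during injury and fibrosis. Tenascins are large oligomeric glycoproteins built of EGF-like repeats, fibronectin type III domains and a fibrinogen-like globe. Tenascin-N (tenascin-W), the product of Tnn, is known from mouse bone, periosteum and kidney and binds the integrin that contains the alpha 8 chain. Osteopontin is a secreted phosphoprotein of kidney tubules that binds integrins and CD44 and limits crystal growth in urine.

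Depth ran from 14290109 to 18045335 counted read pairs in I-PpoI libraries and from 13582540 to 20861021 in WT libraries. Proximal tubule genes were abundant. The summed level of 10 of them was 11180 to 16110 CPM in I-PpoI libraries and 14680 to 19830 CPM in WT libraries. Here CPM are counts scaled to a common library total after TMM normalisation. How evenly cortex was separated from medulla in the 2 groups was not tested. Library names in the labels are hyphenated ahead of their last digit (I-PpoI replicate 3, WT replicates 2 and 3) or plain (I-PpoI replicates 1 and 2, WT replicate 1). On the first principal component, with 43.1% of the variance, hyphenated libraries lay at 11.84 to 21.52 and the others at -30.15 to -0.54. What the form stands for is not in the labels, so results are also given within each form. The plain form has only replicate 1 of WT and the hyphenated form only replicate 3 of I-PpoI. Differences within a form therefore carry no error and are descriptions. In bulk cortex, fewer cells of a type and less RNA per cell cannot be told apart.

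The sequence just before the transcription start is shown for Tnc, the best-studied tenascin and one whose level differed between libraries of the I-PpoI group. It comes from RefSeq on GRCm38.p6, the build that UCSC calls mm10. The run is the 250 bases before the start that the count table also uses (chr4:64047016-64047265), written 5′ to 3′ on the strand of the gene, the minus strand. It was searched on both strands for 6 short motifs. These were the TATA box TATAAA, the promoter box written CCAAT, the AP-1 motif TGANTCA, the TEAD factor motif GGAATG, the RUNX factor motif TGTGGT and the palindromic E-box motif CACGTG. Capitals mark the 1 match.
Tnc: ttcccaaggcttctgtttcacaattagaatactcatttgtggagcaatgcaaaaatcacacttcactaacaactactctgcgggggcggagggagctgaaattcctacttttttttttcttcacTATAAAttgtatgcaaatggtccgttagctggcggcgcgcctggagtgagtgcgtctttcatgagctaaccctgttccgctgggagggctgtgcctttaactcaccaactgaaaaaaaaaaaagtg
The window held TATAAA at positions -126 to -121, counted from the start. RefSeq also gives Tnc a start at 64046936, from which the same TATAAA lies at -205 to -200. Only the exact letters were searched, so variant TATA boxes would be missed before either start. Whether this TATAAA acts as a TATA box was not tested. Of 32851 RefSeq windows of this length, 12.4% held TATAAA on either strand.

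The genes differed in level by orders of magnitude. Per kilobase of exon, Spp1 averaged 525.0 ± 76.8 CPM in I-PpoI cortex and 504.0 ± 31.3 CPM in WT cortex (SD, n = 3 each, as for all means here). Sparc followed at 53.9 ± 2.99 and 47.8 ± 1.29 CPM per kilobase in I-PpoI and WT cortex, and Thbs1 at 6.92 ± 1.84 and 5.62 ± 0.336. These ranges did not overlap one another or the next gene. Below them Tnxb, Tnn, Thbs2, Tnc and Postn averaged 1.43 to 0.42 CPM per kilobase over the 6 libraries, and each of these overlapped its neighbour in that order. Tnn changed place between the groups: it averaged 1.17 ± 0.166 CPM per kilobase in I-PpoI cortex, where Thbs2, Tnc and Postn lay below it, and 0.222 ± 0.0581 in WT cortex, where all of these lay above it.

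**Figure D1:**
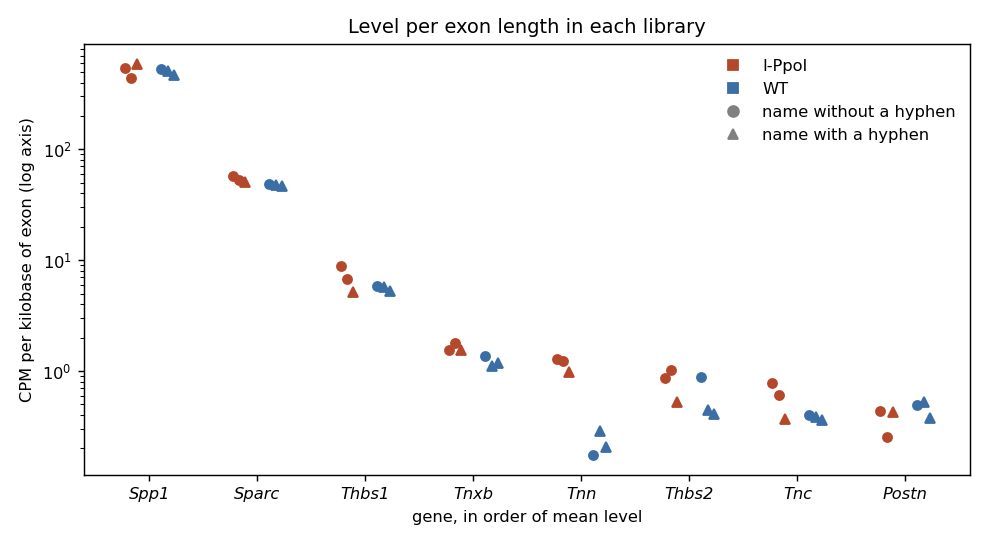
Level of 8 genes in each library, in CPM per kilobase of exon on a log axis, with genes in order of mean level and I-PpoI libraries left of WT libraries. Circles are libraries with plain names and triangles hyphenated ones. The Tnn groups lie furthest apart, and Tnr, at 0 or 1 count per library, is not drawn.

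Among the tenascins, Tnn (chromosome 1, 160085032 to 160153575, mm10, minus strand, 22 merged exons) had 141, 130 and 80 counts in I-PpoI libraries and 21, 22 and 24 in WT libraries. That is 7.46, 7.17 and 5.67 CPM in I-PpoI libraries, against 1.01, 1.67 and 1.2 CPM in WT libraries. The lowest I-PpoI library lay far above the highest WT library, and the 2 plain-named I-PpoI libraries were the highest. The fitted log2 fold change was 2.42 ± 0.23 (SE), or 5.37-fold. Among all 13977 genes tested it ranked 6 by fitted rise, and the genes above it were not called. No other gene in the table overlaps it. Within the plain-named libraries the log2 difference was 2.72 and within the hyphenated ones 1.92, and a fit that also held the name form gave 2.40 ± 0.25. Leaving out any 1 library gave 2.27 to 2.61, although Tnn was no longer past the genome-wide threshold without I-PpoI replicate 1 (2.34), I-PpoI replicate 2 (2.38), WT replicate 1 (2.27) or WT replicate 3 (2.38).

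Tnc (chromosome 4, 63959785 to 64047015) encodes tenascin-C, a large anti-adhesive glycoprotein that returns in wounds and fibrotic tissue. It had 5.50, 4.30 and 2.62 CPM in I-PpoI libraries, against 2.84, 2.73 and 2.59 CPM in WT libraries. The groups overlapped: the hyphenated I-PpoI library sat among the WT libraries and only the plain-named ones were higher. The log2 fold change was 0.62 ± 0.27, with 0.75 within plain names and -0.02 within hyphenated ones, and 0.43 ± 0.24 when the fit held the name form.

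Tnxb (chromosome 17, 34670535 to 34719815) encodes tenascin-X, a matrix protein that organises collagen fibrils and whose loss in humans causes a form of Ehlers-Danlos syndrome. It was at 14.92, 17.16 and 14.95 CPM in I-PpoI libraries, against 13.15, 10.68 and 11.36 CPM in WT libraries. The groups did not overlap, and the log2 fold change was 0.42 ± 0.12, with 0.28 within plain and 0.44 within hyphenated names. No exon of another gene in the table overlapped those of Tnxb. Tnr, the tenascin of the nervous system, had 1 count among the I-PpoI libraries and 1 among the WT libraries, and a count of 0 allows up to 0.144 to 0.227 CPM depending on the library (3 counts, counting error only). It did not pass the filter on low counts, which the other 8 genes did, and has no fold change.

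The make-up of tenascin RNA differed accordingly. Summed per kilobase of exon, the tenascins stood at 3.63, 3.63 and 2.91 CPM per kilobase in I-PpoI libraries, against 1.95, 1.79 and 1.77 in WT libraries. Tnn made up 34.33% ± 0.945 of that sum in I-PpoI cortex and 12.21% ± 3.62 in WT cortex. Tnxb was the largest part in both, at 48.67% ± 5.38 in I-PpoI cortex and 66.73% ± 4.02 in WT cortex. The share of Tnc was 12.7% to 21.4% in I-PpoI libraries and 20.5% to 21.5% in WT libraries, and these overlapped. Shares sum to a whole, so a lower Tnxb share does not mean less Tnxb, whose own level was higher in I-PpoI libraries.

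**Figure D2:**
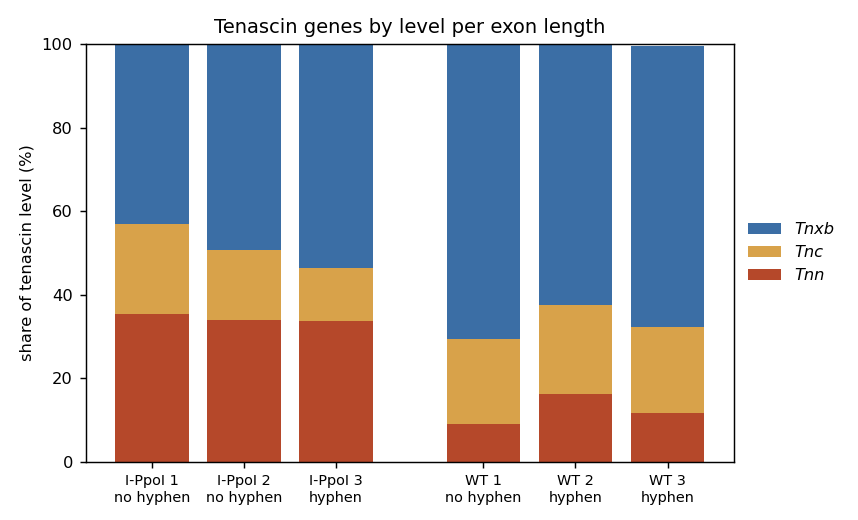
Share of the summed tenascin level per kilobase of exon taken by Tnn, Tnc and Tnxb in each library, in percent, I-PpoI libraries on the left. Tnn takes 33.6% to 35.4% in I-PpoI libraries and 8.94% to 16.1% in WT libraries. Tnr, at 0.523% or less, is not drawn.

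Spp1 (chromosome 5, 104435111 to 104441053), a common readout of tubular injury, made up most of the set's RNA, with 88.8% ± 1.83 of the summed level per kilobase in I-PpoI cortex and 89.93% ± 0.289 in WT cortex. It had 892.4, 733.0 and 984.8 CPM in I-PpoI libraries, against 877.0, 852.3 and 777.5 CPM in WT libraries. I-PpoI libraries were both the highest and the lowest, and the WT libraries lay between them. The log2 fold change was 0.06 ± 0.12, with -0.12 within plain and 0.27 within hyphenated names.

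The thrombospondins are calcium-binding multimeric glycoproteins that restrain angiogenesis, and thrombospondin-1 also activates latent TGF-beta. Thbs1 (chromosome 2, 118111922 to 118127133) had 51.33, 39.06 and 30.12 CPM in I-PpoI libraries, against 34.14, 33.31 and 30.43 CPM in WT libraries. As for Tnc, the hyphenated I-PpoI library lay at the level of the WT libraries. The log2 fold change was 0.30 ± 0.17, with 0.39 within plain and -0.08 within hyphenated names. Thbs2 (chromosome 17, 14665500 to 14694262) had 5.08, 6.07 and 3.12 CPM in I-PpoI libraries, against 5.25, 2.65 and 2.44 CPM in WT libraries. Its values split by name form and not by group, and the fitted group difference was 0.46 ± 0.34, or 0.17 ± 0.18 when the fit held the name form.

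Sparc (chromosome 11, 55394159 to 55420080) encodes a collagen-binding counter-adhesive glycoprotein of stroma and endothelium. It had 150.8, 140.9 and 135.1 CPM in I-PpoI libraries, against 129.2, 126.8 and 122.4 CPM in WT libraries. The groups did not overlap, but the step was small, with a log2 fold change of 0.17 ± 0.08 and 0.17 and 0.12 within plain and hyphenated names. Postn (chromosome 3, 54361107 to 54391041) encodes periostin, which is made by activated fibroblasts and injured tubules. It had 1.43, 0.83 and 1.42 CPM in I-PpoI libraries, against 1.64, 1.74 and 1.25 CPM in WT libraries, from 15 to 34 counts. The groups overlapped, and the log2 fold change of -0.33 ± 0.30 was the only one below 0.

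**Figure D3:**
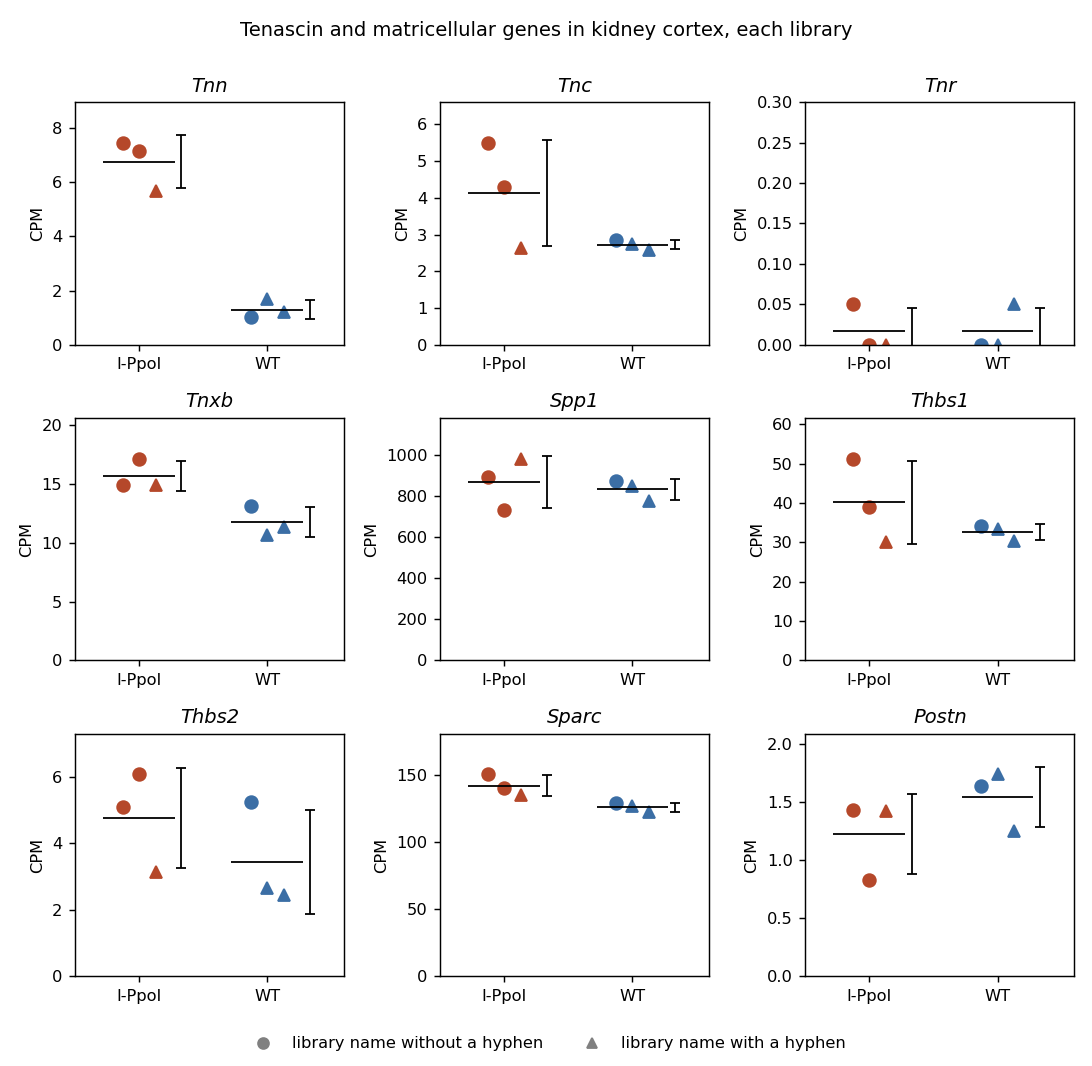
Level of the 9 genes in CPM in each library, I-PpoI left of WT, with the mean as a line and the SD (n = 3) as a bar beside it, cut off at 0 for Tnr. Circles are libraries with plain names and triangles hyphenated ones. The Tnn groups lie far apart, those of Tnxb and Sparc are narrowly separate, and Thbs2 splits by marker shape.

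Of the 8 genes that passed the filter, 1, Tnn, was past the threshold across all genes (edgeR's quasi-likelihood test, Benjamini-Hochberg adjusted p under 0.05), where 0.136% of all genes tested were called higher and 0.0% lower. DESeq2 also called Tnn alone, of 7 genes to which it gave an adjusted p (Postn had none), with 1.03% of genes higher, 0.502% lower and 1.53% in either direction. At an unadjusted p under 0.05, edgeR put 3 of the 8 higher (Tnn, Tnc and Tnxb) and 0 lower, with 6.42% of all genes higher and 5.61% lower. Tnn, Tnxb and Sparc did not overlap between the groups and lay higher in I-PpoI cortex, as 9.23% of all genes tested did, and 0 of the 8 lay lower, as 7.74% did. The fold change was above 0 for 7 of the 8 and for 50.1% of all genes tested. The median log2 fold change of the 8 was 0.36 in this fit and 0.17 when it held the name form, beside 0.00 and -0.006 over all genes tested. Since the comparison was used to choose the set, nothing is read from these counts.

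**Figure D4:**
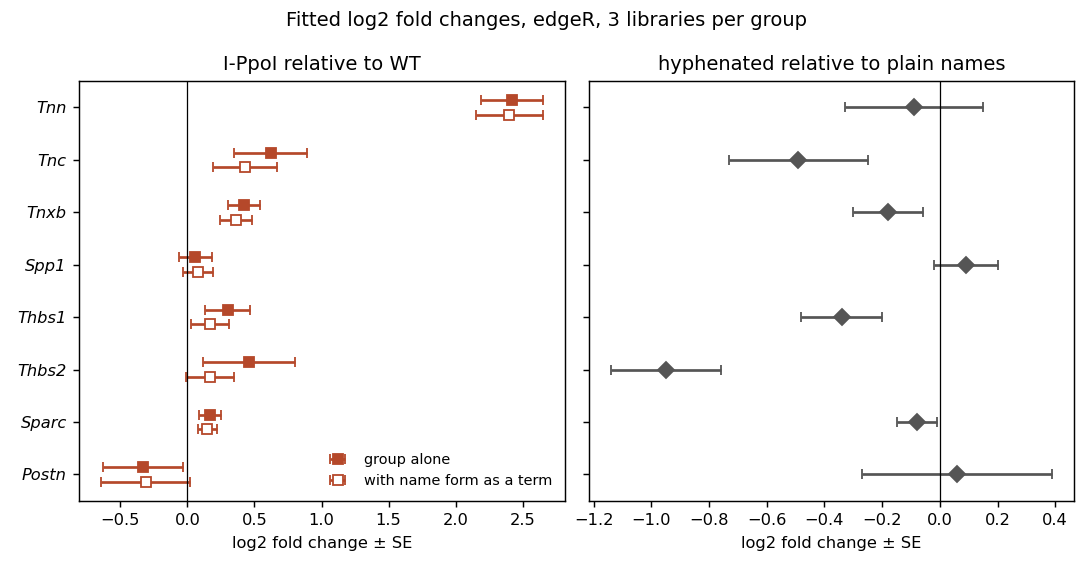
Fitted log2 fold changes with SE for the 8 genes tested: on the left I-PpoI relative to WT, with the group alone (filled) and with the name form added (open), and on the right hyphenated relative to plain library names. On the left Tnn stands at 2.42 and the others between -0.33 and 0.62, and on the right Thbs2 stands at -0.95.

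The contrast between library name forms played no part in the choice of these genes and was tested. With the group as a term, Thbs2 was lower in hyphenated libraries by a log2 fold change of -0.95 ± 0.19 (edgeR's quasi-likelihood test, adjusted p = 0.0307 over all genes; DESeq2, 0.0269). It had 2.44 to 3.12 CPM in the 3 hyphenated libraries, against 5.08 to 6.07 CPM in the 3 plain-named ones, with no overlap. It was the 1 gene of 8 called, beside 1.29% of all genes tested lower, 1.77% higher and 3.06% in either direction. By DESeq2 it was also the 1 gene called, beside 1.92% lower, 3.38% higher and 5.29% in either direction. The call did not survive leaving out any 1 library: the adjusted p was then 0.0602 to 0.12, with log2 fold changes of -1.05 to -0.84. Thbs1 and Tnc leaned the same way without passing, at -0.34 ± 0.14 (adjusted p = 0.24) and -0.49 ± 0.24 (adjusted p = 0.318). Tnn was at -0.09 ± 0.24 (adjusted p = 0.873) and Spp1 at 0.09 ± 0.11 (adjusted p = 0.722). Tnxb, Sparc and Postn did not pass either (adjusted p = 0.449, 0.565 and 0.947), and a p that misses the threshold does not show equal levels. Some list genes also passed on the name form by edgeR. Higher in hyphenated libraries were 4 of 10 proximal tubule genes (list median 0.31) and 1 of 7 inner medulla genes (median 0.14). Lower were 1 of 19 interstitial matrix genes (median -0.21), 1 of 9 pericyte genes (median -0.30), 1 of 12 TGF-beta genes (median 0.02) and 1 of 10 thick ascending limb genes (median -0.04), and 0 passed in the other 8 lists. Their part in the Thbs2 difference was not tested.

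No gene of the wider matricellular family passed beside Tnn. Of 22 further genes listed, 15 were tested and 0 passed by edgeR or DESeq2. At an unadjusted edgeR p under 0.05, 1 was higher and 1 lower, beside 6.42% and 5.61% of all genes tested. The median log2 fold change of the 15 was -0.08 (edgeR). Thbs4, a thrombospondin of tendon and vessel wall, had 1.01, 1.16 and 1.56 CPM in I-PpoI libraries, against 2.46, 1.59 and 3.69 CPM in WT libraries. Its log2 fold change was -1.09 ± 0.35 (edgeR adjusted p = 0.307). Sparcl1, a paralogue of Sparc found in vessels, was at 28.83 ± 2.32 CPM in I-PpoI cortex and 23.05 ± 2.41 CPM in WT cortex (0.33 ± 0.11, edgeR adjusted p = 0.329). The bone matrix genes Ibsp, Dmp1 and Mepe had no count in any library.

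Receptors of these proteins likewise gave no call. Of 23 listed, 20 were tested and 0 passed by edgeR or DESeq2, with a median log2 fold change of -0.05. At an unadjusted edgeR p under 0.05, 1 was higher and 1 lower, beside 6.42% and 5.61% of all genes tested. Itga8, the integrin chain of the Tnn receptor, chosen after its values were seen, was at -0.093 ± 0.127 (edgeR adjusted p = 0.779). Stab1, a scavenger receptor that takes up SPARC, had 29.63, 27.92 and 30.97 CPM in I-PpoI libraries, against 20.71, 24.83 and 21.47 CPM in WT libraries. These did not overlap and lay higher in I-PpoI libraries, as 9.23% of all genes tested did. The log2 fold change of Stab1 was 0.40 ± 0.10 (edgeR adjusted p = 0.201). Egfr, which tenascin-C can engage through its EGF-like repeats, was at 37.55 ± 6.15 CPM in I-PpoI cortex and 46.74 ± 4.09 CPM in WT cortex (-0.32 ± 0.12, edgeR adjusted p = 0.377).

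Genes of interstitial matrix and fibroblasts, of pericytes and smooth muscle and of TGF-beta signalling gave no call by edgeR or DESeq2 either. Interstitial matrix and fibroblast genes had a median of 0.10 over 19 genes. At an unadjusted edgeR p under 0.05, 2 were higher and 0 lower, beside 6.42% and 5.61% of all genes tested. Loxl1 was at 0.33 ± 0.11 (edgeR adjusted p = 0.336) and Vim at 0.33 ± 0.12 (0.356). The summed level of the 19 genes was 346.3 to 435.4 CPM in I-PpoI libraries and 301.3 to 411.0 CPM in WT libraries. Pericyte and smooth muscle genes had a median of 0.17 over 9 genes (2 higher and 0 lower at that p). Ren1, also listed, had no count in any library, for a reason not tested. Acta2 led, at 35.82 ± 2.48 CPM in I-PpoI cortex and 26.90 ± 2.21 CPM in WT cortex (0.41 ± 0.09, edgeR adjusted p = 0.198), and Notch3 was at 0.32 ± 0.12 (0.356). Genes of TGF-beta signalling, a known inducer of several of these proteins, had a median of -0.05 over 12 genes (0 higher and 0 lower). Tgfb1 was at 0.19 ± 0.11 (edgeR adjusted p = 0.504) and its receptor gene Tgfbr2 at -0.16 ± 0.10 (0.541).

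By edgeR with the group alone, the list genes that passed were of nephron segments beyond the proximal tubule. The fold change was above 0 for 10 of 10 thick ascending limb and 10 of 10 collecting duct genes (median 0.44 in each). It was above 0 for 6 of 7 inner medulla genes (median 0.87) and for 50.1% of all genes tested. The lists were chosen with earlier results of these data known, so these counts are descriptions. In these lists 5 genes rose, where 0.136% of all genes tested were called higher. Ptger3, a prostaglandin E2 receptor of the thick ascending limb, was at 59.07 ± 2.05 CPM in I-PpoI cortex and 30.21 ± 4.0 CPM in WT cortex (0.97 ± 0.10, edgeR adjusted p = 0.0356). The others were Tmem207 of the same segment (1.03 ± 0.12, edgeR adjusted p = 0.0356), the vasopressin receptor Avpr2 (0.86 ± 0.11, 0.0385), the water channel Aqp4, which stands in both the collecting duct and inner medulla lists (0.87 ± 0.12, 0.0496), and the small heat shock protein gene Cryab (1.21 ± 0.15, 0.0389). The summed level of the thick ascending limb list was 7729 to 7949 CPM in I-PpoI libraries and 5465 to 6215 CPM in WT libraries. That of the collecting duct list was 1009 to 1122 CPM in I-PpoI libraries and 722.3 to 761.0 CPM in WT libraries. That of the 8 inner medulla genes was 926.2 to 1038 CPM in I-PpoI libraries and 712.6 to 978.4 CPM in WT libraries, where the ranges overlap. Akr1b3 had no count in any library and so adds nothing to this sum. Whether its RNA was absent or its reads went uncounted was not tested. The part of these segments in the Tnn difference was not tested. None of these 5 genes passed by edgeR without I-PpoI replicate 1 (adjusted p of 0.166 to 0.203), I-PpoI replicate 2 (0.128 to 0.208), WT replicate 1 (0.0836 to 0.102) or WT replicate 3 (0.145 to 0.324). Without WT replicate 2, Ptger3 (0.043) and Cryab (0.0397) passed and the other 3 did not. Without I-PpoI replicate 3 all 5 passed, and 12 list genes were called higher in all. The call of Aqp4 also ended under 5 other settings of scaling, filter or tool, with adjusted p of 0.0512 to 0.056 by edgeR or limma.

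Lists for the proximal tubule, where I-PpoI was placed, and for other cells that could be present gave 0 calls by edgeR with the group alone. DESeq2 also gave 0, apart from 2 proximal tubule genes that were lower, where it called 0.502% of genes lower. When the edgeR fit held the name form, 1 proximal tubule gene was lower, beside 0.107% of all genes tested. The median was -0.25 over 10 proximal tubule genes, of which 9 were below 0 and 1 above (edgeR unadjusted p under 0.05 for 0 higher and 4 lower). At that p, 6.42% of all genes tested were higher and 5.61% lower, which applies to each list that follows. The median was 0.00 over 10 macrophage and monocyte genes (1 higher and 0 lower). It was 0.18 over 8 endothelial genes (3 higher and 0 lower) and 0.18 over 6 podocyte genes (0 higher and 0 lower). Of 8 genes of Schwann cells and nerve, where Tnr and Tnxb are also made, 4 were tested (median 0.16; 2 higher and 0 lower). Of 9 adrenal genes 2 were tested (1 higher and 0 lower), and the steroid enzymes Cyp11b1 and Cyp11b2 and the catecholamine enzyme Th had no count. Among the 2 genes with the smallest p in each list were the transporters Slc7a13 (-0.48 ± 0.13) and Slc13a1 (-0.28 ± 0.08) of the proximal tubule, Csf1r (0.22 ± 0.09) and C1qc (0.15 ± 0.15) of macrophages, Pmp22 (0.26 ± 0.11) and Mbp (0.30 ± 0.13) of myelin, Akr1b7 (0.54 ± 0.20) and Star (0.10 ± 0.18) of the adrenal, Plvap (0.29 ± 0.08) and Emcn (0.32 ± 0.12) of endothelium, and Nphs1 (0.23 ± 0.11) of podocytes.

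**Figure D5:**
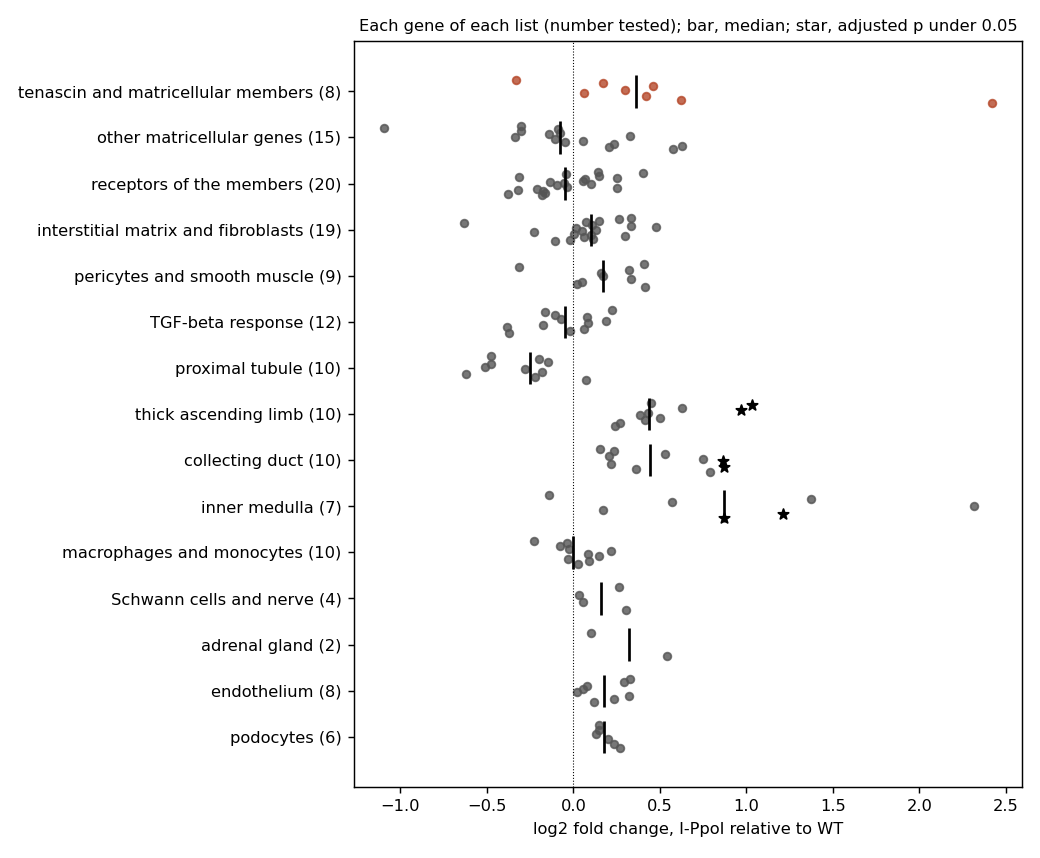
Log2 fold change of every gene tested, I-PpoI relative to WT, for the tenascin and matricellular genes at the top and the fixed lists below, with the number tested in brackets. Bars are medians and stars mark list genes with an edgeR adjusted p under 0.05. Tnn lies far to the right of its set, and the stars fall in the thick ascending limb, collecting duct and inner medulla lists.

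The genes closest to each pattern were found by the correlation of log2 CPM over the 6 libraries, which share depth, name form and group, so the values are descriptions. Those nearest to Tnn were Aldoc (r = 0.9969), the glycolytic enzyme aldolase C, Tmem67 (0.9957), a protein of the primary cilium, Litaf (0.9947), a lysosomal membrane protein, Cldn16 (0.9945), a tight junction protein of the thick ascending limb, and Gprc5a (0.9935), an orphan receptor. Aldoc had 34.19, 31.23 and 29.13 CPM in I-PpoI libraries, against 11.36, 16.05 and 12.75 CPM in WT libraries. Aldoc thus shared with Tnn the gap between groups, on which the set was chosen. It also shared the WT order, in which WT replicate 2 was highest. For Tnn that order rests on only 21, 22 and 24 counts. No tenascin, matricellular gene or collagen was among the genes nearest to Tnn. These are only a few of all genes tested, so nothing is read from that absence. Nearest to Thbs2 was Pdk4 (r = 0.9972), which restrains pyruvate oxidation, with 212.15, 491.17 and 40.54 CPM in I-PpoI libraries, against 301.27, 24.91 and 21.02 CPM in WT libraries. As for Thbs2, its high libraries were the plain-named ones of both groups. Nearest to Thbs1 was Itga5 (r = 0.9933), the fibronectin receptor chain, with 14.92, 12.36 and 9.57 CPM in I-PpoI libraries, against 10.93, 10.30 and 9.86 CPM in WT libraries. The other nearest genes were Wsb1 and Fermt1 for Thbs2, Dnah11 and Tpcn2 for Thbs1, Mob2, Msantd2 and Plscr1 for Tnc, and Guca2a, Rabl2 and Plekhh2 for Tnxb. They were Stx12, Slc15a3 and Cd52 for Spp1, Pald1, Robo3 and Cdr2l for Sparc, and Zfyve21, Rassf4 and Stap1 for Postn, with r of 0.9766 to 0.9996 over these. Within the set Tnc and Thbs1 were the most alike (r = 0.97). Tnn had r of 0.88 with Sparc, 0.82 with Tnxb and 0.71 with Tnc. Its r was 0.58 with Thbs1, 0.45 with Thbs2, 0.11 with Spp1 and -0.51 with Postn.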

How the data were processed

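RNA-seq of kidney cortex was analysed in 3 I-PpoI and 3 WT libraries, grouped by their titles. Per the labels' protocols, stranded TruSeq mRNA libraries were sequenced as pairs on a NovaSeq and mapped with HISAT2. The deposited counts are raw read pairs per gene over exons, made with featureCounts 1.5.2 with both mates mapped, no strand option and no option for multi-mapping reads, per the file headers. The header names UCSC mm10 and the labels mm9. Of 23156 symbols matched, 99.39% overlapped their GRCm38.p6 position, so coordinates are mm10. Log2 values (rlog) of 17918 genes, also deposited by the authors, served as an alternative.

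Counts were tested in R 4.3.3 with edgeR 4.0.16: default expression filter (minimum count 10, 13977 genes kept), TMM factors, two-sided quasi-likelihood tests, and p-values adjusted over all genes (Benjamini-Hochberg, threshold 0.05). SE come from the fitted weights. CPM for correlations were log2 with a prior count of 2. Alternatives used DESeq2 1.42.0, limma 3.58.1, other factors and filters, the name form or title replicate number as a term, and each library left out. The procedure was also run on simulated counts with known group effects and no name form effect. That run does not show how stable the calls are here. The genes and lists were chosen with earlier results of these data known. Named list genes are the 2 with the smallest p per list and any that passed, and named neighbours are those with the highest r among genes of at least 1 CPM. A list gene and a sequence that these rules would show are not reported here.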

Additional observations from a re-analysis of the deposited data

How the results depend on the processing

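Over the 8 genes, 115 of 120 alternative values of the I-PpoI against WT fold change kept their direction and their side of the threshold. Spp1 turned to -0.04 without I-PpoI replicate 3, in a range of -0.04 to 0.17 over the libraries left out. Tnn lost its call without 4 of the libraries in turn, so the number of these genes called higher was 0 to 1, and 0 to 0 were lower. On the deposited rlog values, which are shrunk, Tnn was 0.54 higher. Over all genes, calls higher and lower were 125 and 61 by DESeq2, 49 and 15 when the fit held the name form, and 44 and 3 with no filter on low counts. They were 0 to 261 and 0 to 364 when 1 library was left out. Of the list genes, 13 were higher and 2 lower by DESeq2, 9 and 1 when the fit held the name form, and 8 higher with no filter, and leaving out 1 library gave 0 to 12 higher and 0 to 5 lower. The cause was not tested. With a replicate block by title number, 33 genes were higher and 7 lower. Deviations of libraries with the same title number from their group means had r = 0.219, -0.128 and 0.163. The other pairs had -0.274 to 0.179. The library names carry other numbers than the titles. By library name, I-PpoI replicate 1 shares its number with WT replicate 1 (r = 0.219). I-PpoI replicate 3 shares its number with WT replicate 2 (r = 0.179), and the remaining libraries have no partner. With 3 libraries per group, these values cannot decide whether either numbering pairs the samples.

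For the name form, the 1 gene called lower (Thbs2) became 0 to 0 when any 1 library was left out, and 0 were higher throughout. With 1 library left out, Tnn ranged from -0.37 to 0.47, Spp1 from -0.10 to 0.28 and Postn from -0.16 to 0.32. Values that changed sign were Tnn at 0.47, Spp1 at -0.10 and Postn at -0.16 without I-PpoI replicate 3, Spp1 at -0.0003 and Postn at -0.10 without I-PpoI replicate 2, and Postn at -0.02 without WT replicate 2. For I-PpoI against WT, Star turned to -0.02 without I-PpoI replicate 1, in a range of -0.02 to 0.21. Depth limits Tnn in WT, Tnc, Thbs2 and Postn, at 15 to 110 counts, and Tnr, near 0.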
